A study of Mus musculus with 12 samples.

Results

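The genes described here are 32 mouse genes of cholesterol and fatty acid synthesis, found by their Ensembl identifiers in a table of FPKM values (fragments per kilobase of gene and per M fragments) for sorted hematopoietic stem cells. They are 6 enzymes of the mevalonate steps, 2 of the isoprenoid steps, 11 of the sterol steps, 6 genes that control or carry the sterol signal, 5 fatty acid synthesis genes and 2 sterol efflux pumps. All 32 were found among the 35275 genes of the table. All 32 also passed the filter for testing, which kept the 12823 genes that reached 1 FPKM in 3 or more of the 12 libraries.

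The cells came from C57BL/6 mice in 4 groups of 3 libraries. The groups were knockout (Thpo-/-) given Romiplostim, untreated knockout, wild type (Thpo+/+) given Romiplostim, and untreated wild type. Thpo encodes thrombopoietin, a cytokine for megakaryocytes and stem cells, and Romiplostim is an agonist of its receptor. Mice received 100 µg/kg of it into a vein daily over 10 days, and the protocols name PBS for the controls, which the labels call untreated. The labels give neither the age nor the sex of the mice, nor the surface markers used for sorting. They do not say that replicates are separate animals, so the p-values measure only the spread between these libraries. Each group had its own sequencing run, so run and group cannot be told apart.

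Cells build cholesterol from acetyl-CoA through mevalonate, isoprenoids and a chain of sterol intermediates. When sterols in the endoplasmic reticulum run low, the escort protein SCAP carries the SREBP transcription factors to the Golgi for activation, and they switch on the enzymes of the chain together. INSIG proteins hold SCAP back when sterols are plentiful. Dividing blood cells draw on this pathway for membranes and for lipid anchors of signalling proteins, and the ABC transporters ABCA1 and ABCG1 export cholesterol and restrain stem cell proliferation in mice.

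The depth came to 27.6 to 35.4 M fragments per library, estimated from the step between low FPKM values. A floor of 3 fragments over 2 kb of exon stood at 0.0424 to 0.0543 FPKM, far under the lowest value of any member, 1.22 FPKM. The untreated knockout libraries stood apart in their cell markers. The mean level of 12 stem cell markers was 4.36 to 4.72 on the log2(FPKM + 1) scale there, against 6.50 to 6.73 in untreated wild type. The 10 B cell markers summed to 1716 to 4237 FPKM against 86.7 to 98.4, the 10 macrophage markers to 999 to 2898 against 53.0 to 71.6, and the 10 erythroid markers to 2739.9 to 3161 against 182 to 262. None of these markers was at 0 in all libraries of either group. All 10 of each of the 3 lists rose, and 11 of the 12 stem cell markers fell (limma adjusted p under 0.05), where 22.1% of all genes tested rose and 23.0% fell. Of the others, 9 of 10 myeloid, 10 of 10 T and NK cell, 8 of 9 stromal and endothelial and 12 of 12 cell cycle genes rose, and 1 stromal and endothelial marker fell. Pax5 averaged 7.52 FPKM in untreated knockout and at most 0.381 in any other group, and the myeloid marker Csf1r 16.8 and at most 0.694. Such markers passed the filter through untreated knockout, so their rise there was partly set by the filter. In treated knockout libraries the B cell markers summed to 96.2 to 655 FPKM and the macrophage markers to 91.3 to 128, and in treated wild type to 67.2 to 70.4 and 18.7 to 28.1, with Pax5 at 0 in all 3 libraries of the last group. The erythroid markers stayed high in treated knockout, at 824 to 6696 FPKM, against 69.0 to 82.2 in treated wild type. The stem cell level was 5.54 to 6.48 in treated knockout and 6.32 to 6.59 in treated wild type. The mean log2(FPKM + 1) of 4 Y-linked genes was 0.01 to 0.05 in treated knockout and 3.02 to 3.99 in untreated knockout. It was 0.03, 3.82 and 4.01 in treated and 3.85, 0.17 and 4.01 in untreated wild-type replicates 1, 2 and 3.

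Members differed widely in level but little between groups. Ebp, the sterol isomerase, had 91.3 to 105 FPKM over all 12 libraries and was the steadiest member. Fdps, which makes farnesyl diphosphate, was of similar level with 65.7 to 138 FPKM. Idi1, the isopentenyl diphosphate isomerase, had 49.6 to 95.5 FPKM, and Insig2 had 39.9 to 58.1. At the low end Acaca, the acetyl-CoA carboxylase that commits carbon to fatty acids, had 1.96 to 4.56 FPKM, and Abca1 had 1.22 to 4.61. Hsd17b7, a ketosteroid reductase of the sterol steps, had 2.94 to 5.03 FPKM. The mean level of the 19 enzymes from Acat2 to Dhcr7 was 4.15 to 4.74 log2(FPKM + 1) in treated knockout, 4.26 to 4.44 in untreated knockout, 4.60 to 4.64 in treated wild type and 4.23 to 4.39 in untreated wild type. The whole range of this enzyme level, from 4.15 to 4.74, was small beside that of the B cell markers, from 1.28 to 7.63 in the same libraries.

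**Figure D1:**
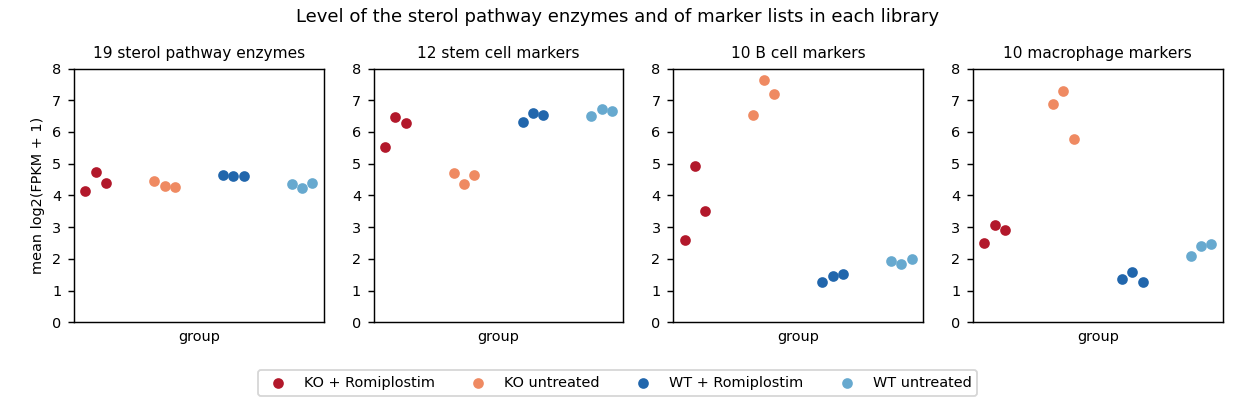
Mean log2(FPKM + 1) of the 19 sterol pathway enzymes and of 3 marker lists in each of the 12 libraries, 1 point per library, coloured by group. The enzymes stay between 4.15 and 4.74 in every library, while the B cell markers run between 1.28 and 7.63.

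The promoters of 5 members are shown because these genes carry the differences described below, or, for Hmgcs1, because its window held the sterol element core. The windows run from 250 bases before to 50 after the start of transcription in RefSeq (GRCm38.p6), written 5′ to 3′ on the strand of the gene. Capitals mark the motifs searched on both strands, namely a sterol regulatory element core (TCACNCCAC), the CCAAT box, the GC box (GGGCGG) and an E-box (CACGTG). Hmgcs1 lies at chr13:119690101-119690400 on the plus strand. On the minus strand lie Mvd at chr8:122443373-122443672, Cyp51 at chr5:4104648-4104947, Msmo1 at chr8:64733529-64733828 and Acly at chr11:100527951-100528250.
Hmgcs1: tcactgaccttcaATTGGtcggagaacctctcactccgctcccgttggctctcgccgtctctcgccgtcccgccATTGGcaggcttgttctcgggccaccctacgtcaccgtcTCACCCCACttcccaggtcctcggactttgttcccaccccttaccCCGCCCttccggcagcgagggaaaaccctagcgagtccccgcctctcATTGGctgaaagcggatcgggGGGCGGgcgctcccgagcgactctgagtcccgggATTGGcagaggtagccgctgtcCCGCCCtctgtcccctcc
Mvd: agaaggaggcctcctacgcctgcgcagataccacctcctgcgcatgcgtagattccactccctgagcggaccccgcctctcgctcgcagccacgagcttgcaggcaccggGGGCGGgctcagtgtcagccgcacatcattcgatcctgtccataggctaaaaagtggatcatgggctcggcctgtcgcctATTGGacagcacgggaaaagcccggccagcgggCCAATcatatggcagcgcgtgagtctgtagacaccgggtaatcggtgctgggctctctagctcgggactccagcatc
Cyp51: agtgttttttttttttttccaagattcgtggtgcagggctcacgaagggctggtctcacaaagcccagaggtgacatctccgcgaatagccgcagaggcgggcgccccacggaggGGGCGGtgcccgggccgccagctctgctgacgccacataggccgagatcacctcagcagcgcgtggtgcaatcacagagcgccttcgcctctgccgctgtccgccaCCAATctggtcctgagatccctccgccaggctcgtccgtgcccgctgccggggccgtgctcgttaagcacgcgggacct
Msmo1: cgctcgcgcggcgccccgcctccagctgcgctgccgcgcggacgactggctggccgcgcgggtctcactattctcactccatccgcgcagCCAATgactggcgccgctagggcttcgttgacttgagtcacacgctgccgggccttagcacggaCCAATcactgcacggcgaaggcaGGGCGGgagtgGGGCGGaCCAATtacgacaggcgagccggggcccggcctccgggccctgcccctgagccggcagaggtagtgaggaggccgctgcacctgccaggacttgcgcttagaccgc
Acly: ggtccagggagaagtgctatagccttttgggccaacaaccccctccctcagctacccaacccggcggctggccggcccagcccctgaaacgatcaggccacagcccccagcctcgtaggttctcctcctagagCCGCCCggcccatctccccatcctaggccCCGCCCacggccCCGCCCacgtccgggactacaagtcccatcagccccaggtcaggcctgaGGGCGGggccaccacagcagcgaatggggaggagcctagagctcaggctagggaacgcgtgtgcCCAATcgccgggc

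RefSeq promoter entries were matched for 26 of the 32 members, 34 windows in all. CCAAT stood in 22 of the 34 windows (64.7%), and in 37.4% of all 32851 promoters of the same length. GGGCGG stood in 25 windows (73.5%) and in 35.7% of all promoters, and CACGTG in 7 (20.6%) and in 7.2%. TCACNCCAC stood in 1 window (2.9%), that of Hmgcs1 with its first base at -137, and in 1.2% of all promoters. No match of 1 motif overlapped a match of another in the windows of members. A match is a description of letters, and the binding of a factor was not measured.

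Untreated knockout was set against untreated wild type to see what changes when thrombopoietin is lost. Among the 32 members Acly and Srebf1 rose and Stard4 and Fdft1 fell, and the other 28 did not pass. The members that passed were 4 of 32, where 45.1% of all genes tested passed (adjusted p under 0.05, limma with Benjamini-Hochberg adjustment), 22.1% upward and 23.0% downward. An unadjusted p under 0.05 was found for 6 members and 52.9% of all genes. The median log2 fold change was -0.04 over the members and -0.03 over all genes. The markers of other cells given above moved in the same comparison. In bulk RNA fewer cells of a type and less RNA per cell cannot be told apart, and the part of the other cells in these values was not tested.

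Acly (ENSMUSG00000020917, chromosome 11, 100476353 to 100528000, mm10), the ATP citrate lyase that supplies cytosolic acetyl-CoA to both fatty acid and sterol synthesis, had 78.7, 59.5 and 56.2 FPKM in untreated knockout replicates 1, 2 and 3, against 44.1, 41.6 and 42.5 in untreated wild type. Every knockout library lay above every wild-type library. The log2 fold change, on the log2(FPKM + 1) scale as all those below, was 0.58 ± 0.13 (SE, n = 3 each, limma adjusted p = 0.00463), or 1.49-fold.

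Srebf1 (ENSMUSG00000020538, chromosome 11, 60199089 to 60222581), the transcription factor gene that favours fatty acid synthesis, had 60.4, 45.2 and 41.2 FPKM in untreated knockout, against 27.9, 30.5 and 36.0 in untreated wild type. The groups did not overlap, and replicate 1 was the highest knockout library for both Srebf1 and Acly. Srebf1 rose by 0.61 ± 0.17 (limma adjusted p = 0.0112). Its relative Srebf2, which favours cholesterol synthesis, went the other way in mean without passing. It had 27.0, 20.1 and 24.4 FPKM in untreated knockout, against 25.7, 41.1 and 43.5 in untreated wild type. Wild-type replicate 1 fell among the knockout values, and the change was -0.58 ± 0.24 (limma adjusted p = 0.0681).

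Stard4, a carrier that moves cholesterol between membranes and is itself an SREBP target, had 20.6, 20.3 and 14.8 FPKM in untreated knockout, against 29.4, 34.8 and 38.6 in untreated wild type. The groups were fully apart, with a log2 fold change of -0.85 ± 0.21 (limma adjusted p = 0.00654). Acly, Srebf1 and Stard4 kept these calls in all 15 alternative settings tried for this comparison.

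Fdft1, squalene synthase, the first enzyme committed to sterols, had 13.6, 13.1 and 13.5 FPKM in untreated knockout, against 17.8, 17.5 and 20.3 in untreated wild type (-0.44 ± 0.16, limma adjusted p = 0.0478). The groups did not overlap, but the call was lost without any 1 of the 6 libraries (adjusted p of 0.0702 to 0.145). Fdft1 shares 774 exon bases, 18.3% of its exons, with Ctsb on the other strand, and the kit does not mark the strand. Ctsb, a lysosomal protease, averaged 371 ± 145 FPKM in untreated knockout and 102 ± 23.4 in untreated wild type (SD, n = 3 each).

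The mevalonate enzymes stayed within -0.14 to 0.30 of untreated wild type and 0 of 6 passed. Idi1 had 72.3, 63.3 and 51.6 FPKM in untreated knockout, against 49.6, 53.5 and 68.1 in untreated wild type, with the groups overlapping. Of the 11 sterol enzymes, Fdft1 alone passed, and the others ranged over -0.37 to 0.34. Msmo1, the methylsterol oxidase, was at the low end with 33.8, 25.8 and 32.3 FPKM in untreated knockout, against 37.5, 39.1 and 42.6 in untreated wild type, a gap without overlap that did not pass (limma adjusted p = 0.126). Abcg1 had 16.8, 20.5 and 14.9 FPKM in untreated knockout, against 19.9, 30.2 and 31.1 in untreated wild type (-0.59 ± 0.24, limma adjusted p = 0.0622). Groups of 3 libraries did not overlap upward for 4 members and downward for 5, where 27.2% and 29.0% of all genes did so. Leaving out wild-type replicate 1 gave 6 of 32 members that fell, namely Stard4, Abcg1, Srebf2, Insig1, Acaca and Scd2, where 22.9% of all genes fell.

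**Figure D2:**
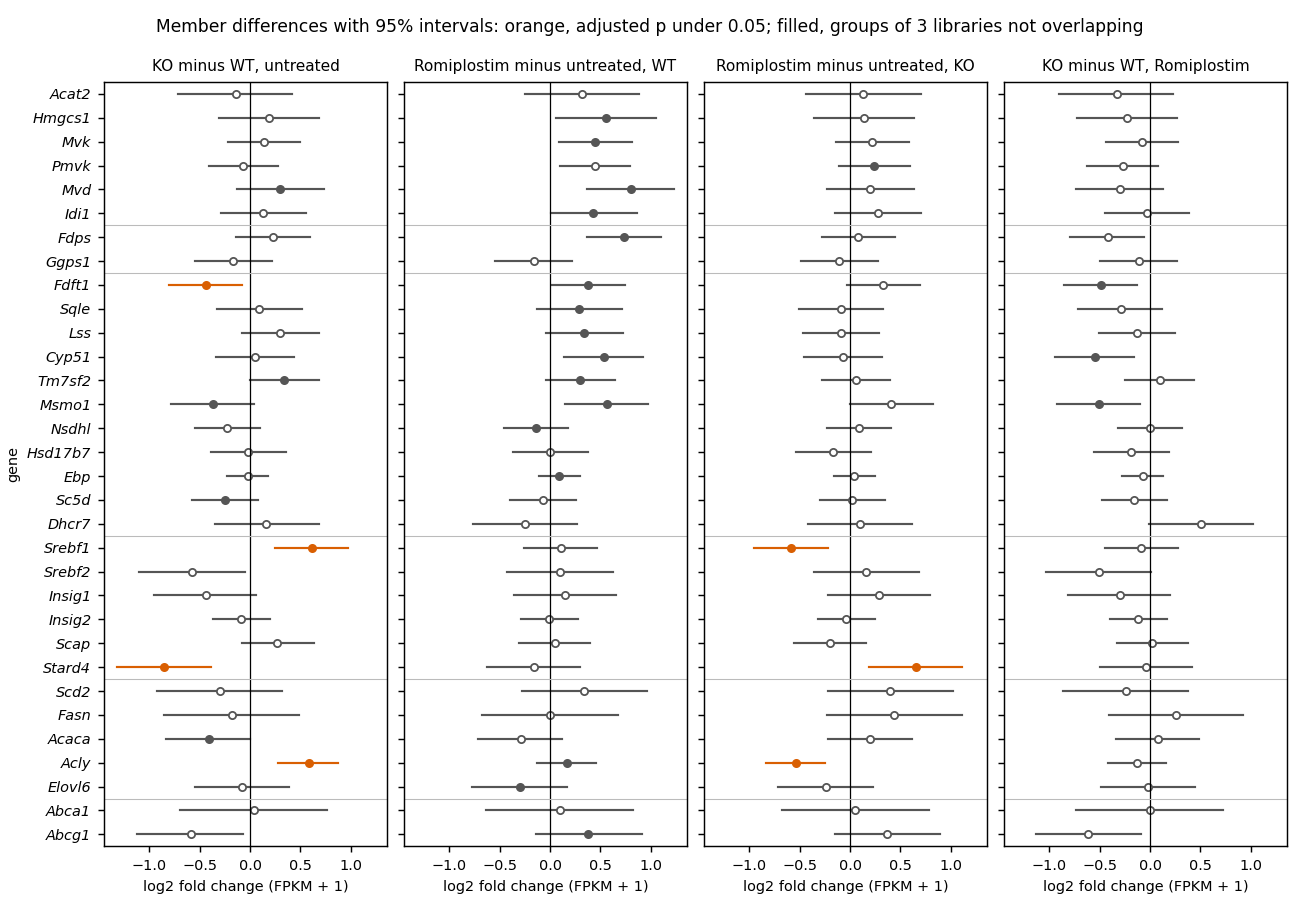
Log2 fold change of each member on the log2(FPKM + 1) scale in 4 comparisons, with 95% intervals from limma, genes down the page by role. Orange marks an adjusted p under 0.05 (4, 0, 3 and 0 members from left to right) and filled points mark groups of 3 libraries that did not overlap, which were most frequent for Romiplostim in wild type (14 higher).

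Treated wild type was set against untreated wild type to see what the agonist adds to normal thrombopoietin. Most enzymes between mevalonate and the sterol ring were higher with the agonist in every library. However, 0 of 32 members passed in the main fit, that of log2(FPKM + 1) as deposited to all 12 libraries. A count of 9 members had an unadjusted p under 0.05, all of them enzymes of the mevalonate, isoprenoid or sterol steps, where 13.3% of all genes had one. Of all genes, 1.84% passed, 0.866% upward and 0.975% downward. Treated and untreated libraries did not overlap, upward, for 14 of 32 members, where 10.3% of all genes did so, and for 12 of the 19 enzymes. Downward they did not overlap for Nsdhl and Elovl6, where 16.5% of all genes did so. The median log2 fold change was 0.34 over the 19 enzymes, 0.16 over all members and -0.04 over all genes.

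Fdps (ENSMUSG00000059743, chromosome 3, 89093588 to 89101959) had 138, 136 and 128 FPKM in treated wild type, against 84, 65.7 and 93.6 in untreated wild type. The lowest treated library stood well above the highest untreated one, with a log2 fold change of 0.73 ± 0.17 (limma adjusted p = 0.0511). Fdps shares 1124 exon bases, 26.7% of its exons, with Gm43738 on the same strand, a gene without a value here. Mvd (ENSMUSG00000006517, chromosome 8, 122433601 to 122443422), the mevalonate diphosphate decarboxylase, had 8.11, 8.95 and 9.0 FPKM in treated wild type, against 4.60, 3.80 and 5.39 in untreated wild type (0.80 ± 0.20, limma adjusted p = 0.0650). Its mean of 8.68 ± 0.502 FPKM in treated and 4.59 ± 0.791 in untreated wild type (SD, n = 3 each) was the largest relative gap of the members here.

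Msmo1 had 57.8, 59.6 and 59.1 FPKM in treated wild type, against 37.5, 39.1 and 42.6 in untreated wild type. Cyp51, the lanosterol demethylase, had 34.9, 36.6 and 35.2 FPKM in treated, against 23.1, 23.3 and 26.7 in untreated wild type. For both genes the spread within each group was small beside the gap, with changes of 0.56 ± 0.19 (limma adjusted p = 0.201) and 0.53 ± 0.18 (limma adjusted p = 0.199). The standard errors come from a spread shared with the knockout groups, and both genes varied more in treated knockout than in wild type.

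Hmgcs1, the synthase that makes HMG-CoA, had 11.1, 13.1 and 14.7 FPKM in treated wild type, against 6.18, 9.99 and 9.70 in untreated wild type (0.55 ± 0.23, limma adjusted p = 0.311). Fdft1 had 24, 25.5 and 23.8 FPKM in treated, against 17.8, 17.5 and 20.3 in untreated wild type (0.38 ± 0.16, limma adjusted p = 0.343). Ggps1, which makes geranylgeranyl diphosphate, had 17.0, 13.6 and 14.6 FPKM in treated, against 21.7, 15.5 and 14.4 in untreated wild type, with overlap (-0.16 ± 0.18). Idi1, Mvk (mevalonate kinase), Sqle (squalene epoxidase), Lss (lanosterol synthase) and Tm7sf2 (a sterol reductase) also had groups that did not overlap, with changes of 0.29 to 0.45. Tm7sf2 shares 532 exon bases, 12.1% of its exons, with Vps51 on the same strand, which averaged 32.1 FPKM over the 12 libraries. Among the last enzymes of the chain, Ebp had 101, 101 and 104 FPKM in treated, against 99.8, 91.9 and 95.3 in untreated wild type, a small gap without overlap (0.09 ± 0.09). Dhcr7, the last reductase, had 22.1, 14.3 and 13.9 FPKM in treated, against 20.2, 18.9 and 19.8 in untreated wild type, with overlap, and Sc5d had a change of -0.07 ± 0.15.

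The genes that control the enzymes had changes close to 0. Srebf2 had 30.2, 43.4 and 43.0 FPKM in treated, against 25.7, 41.1 and 43.5 in untreated wild type, a log2 fold change of 0.10 with a 95% interval of -0.43 to 0.62. The 6 regulators ranged over -0.16 to 0.15, with overlap in every case. Scap had 28.5, 37.0 and 33.6 FPKM in treated, against 24.4, 34.8 and 37.8 in untreated wild type. Among fatty acid genes Fasn, the fatty acid synthase, had a change of 0.00 with an interval of -0.67 to 0.67. Acly had 51.4, 46.0 and 46.9 FPKM in treated, against 44.1, 41.6 and 42.5 in untreated wild type, a gap of 0.17 ± 0.13 without overlap that did not pass (limma adjusted p = 0.685). Abcg1 had 35.3, 31.6 and 38.2 FPKM in treated, against 19.9, 30.2 and 31.1 in untreated wild type (0.38 ± 0.24, limma adjusted p = 0.558).

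The call in wild type depended on which libraries set the spread, and also on the scaling and the pseudocount. With a filter of 5 FPKM 0 members passed, where 0.78% of all genes passed upward. The count was also 0 with no filter (0.328%), the Y-linked level as a covariate (0.686%) or the replicate number as a block in the fit of all 12 libraries (0.78%). Leaving out any 1 wild-type library gave 0 (0.289% to 0.663%), as did leaving out replicate 1 of both wild-type groups (0.195%). With all 12 libraries in the fit, Fdps and Mvd passed with median-of-ratios scaling, where 1.32% of all genes passed upward. The same 2 passed with quantile normalization (1.33%), and Fdps alone with a pseudocount of 0.1 (1.05%). With only the 6 wild-type libraries in the fit, Fdps, Mvd, Cyp51 and Msmo1 passed upward (limma adjusted p of 0.0362, 0.0285, 0.0284 and 0.0182), where 4.90% of all genes passed in either direction and 2.17% upward. With the replicate number as a block in that fit Pmvk passed as well (0.0408, and 0.0268 to 0.0444 for the other 4 of 5), where 6.74% of all genes passed in either direction and 3.06% upward. In the same libraries 2 of 12 cell cycle genes rose (median over the 12 of 0.67 on the log2 scale) and 3 of 10 erythroid markers fell, and their part in these values was not tested.

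**Figure D3:**
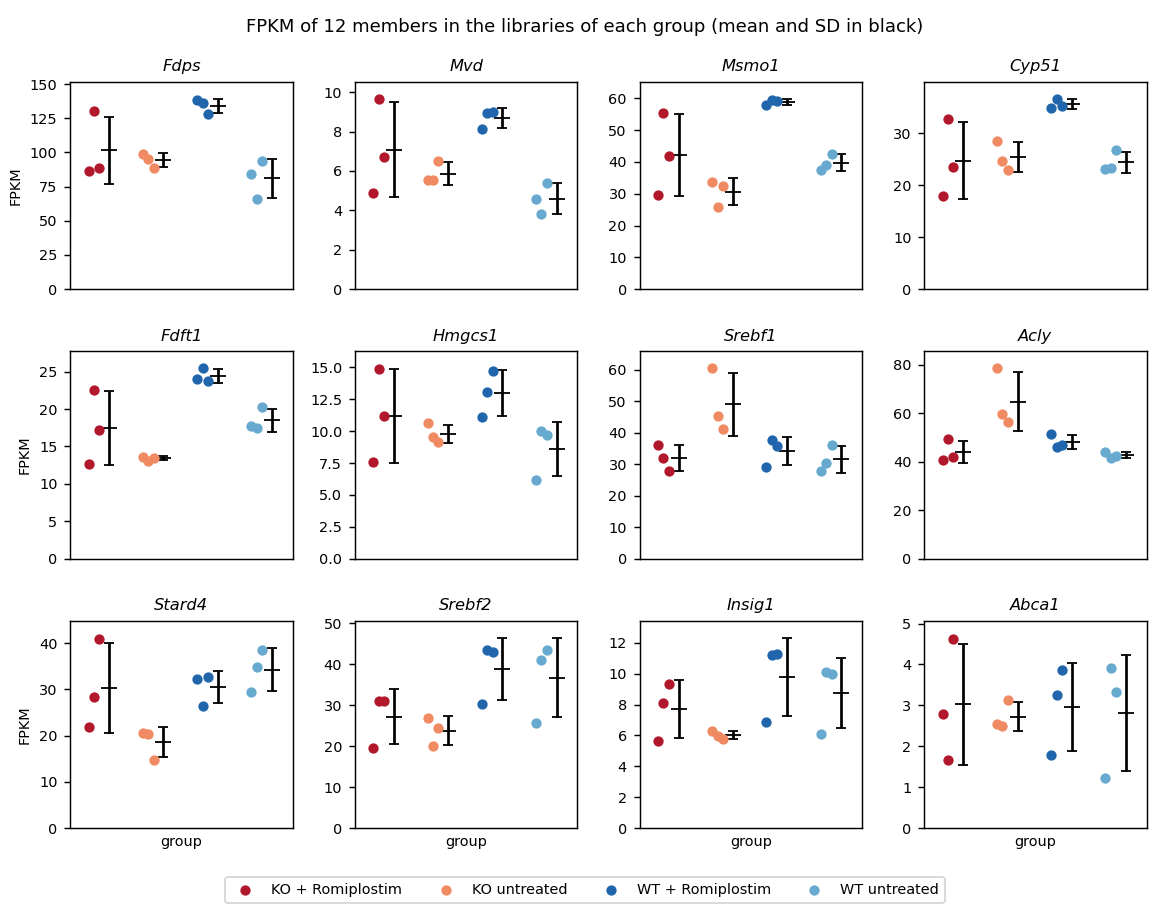
FPKM of 12 members in each library by group, with the group mean and SD (n = 3) in black and axes from 0. Fdps, Mvd, Msmo1, Cyp51 and Fdft1 are higher in all treated than in all untreated wild-type libraries, Srebf1 and Acly are highest in untreated knockout, and Srebf2, Insig1 and Abca1 are low in replicate 1 of both wild-type groups.

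Treated knockout was set against untreated knockout to see what the agonist does without thrombopoietin. Acly and Srebf1 fell and Stard4 rose, and the other 29 members did not pass, where 29.6% of all genes passed, 10.7% upward and 18.9% downward. An unadjusted p under 0.05 was found for 4 members and 42.1% of all genes. The median log2 fold change was 0.09 over the members and -0.09 over all genes. Acly had 40.8, 49.2 and 41.8 FPKM in treated knockout, against 78.7, 59.5 and 56.2 in untreated knockout (-0.54 ± 0.13, limma adjusted p = 0.0114). Srebf1 had 36.0, 31.9 and 27.9 FPKM in treated, against 60.4, 45.2 and 41.2 in untreated knockout (-0.59 ± 0.17, limma adjusted p = 0.0210). Stard4 had 21.8, 28.4 and 41.0 FPKM in treated, against 20.6, 20.3 and 14.8 in untreated knockout (0.65 ± 0.21, limma adjusted p = 0.0373). None of these groups overlapped (15.6% of all genes did not overlap upward and 24.7% downward), but treated replicate 1 of Stard4 lay just above the untreated libraries. The untreated knockout libraries serve here and in the comparison with untreated wild type, so the directions of these genes in both are not independent.

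In treated against untreated knockout the scaling mattered. The share of called genes that were higher was 36.3% as deposited, 47.4% with median-of-ratios scaling and 58.2% with quantile normalization, and the median over all genes was -0.09, 0.00 and 0.07. With median-of-ratios scaling 3 of 32 members rose (Stard4, Fdft1 and Msmo1), where 14.4% of all genes rose, and with quantile normalization 5 (those, Mvk and Pmvk), where 19.2% did. Without treated replicate 1, 4 members rose (Stard4, Fdft1, Msmo1 and Abcg1), where 13% of all genes rose.

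Y-linked genes were near 0 in all treated knockout libraries and high in all untreated ones. With their level as a covariate, 0 of the 3 calls was kept, where 8.26% of all genes passed. The changes were then -0.58 ± 0.20 for Acly, -0.41 ± 0.23 for Srebf1 and 0.62 ± 0.31 for Stard4 (limma adjusted p of 0.0956, 0.285 and 0.232). Within groups the Y-linked level varied mainly in wild type, so this fit cannot tell it apart from the agonist in knockout. With only the 6 knockout libraries in the fit 0 of the 3 was kept either (0.0700, 0.0692 and 0.115). The Stard4 call was lost without any 1 of the 3 untreated libraries or treated replicate 2 or 3 (0.0535 to 0.144), and that of Srebf1 without untreated replicate 1 (0.0863) or treated replicate 3 (0.0826). All 10 macrophage, all 10 B cell and all 10 myeloid markers fell in this comparison, where 18.9% of all genes fell and 10.7% rose. So did 7 of 9 stromal and endothelial, 6 of 10 erythroid and 7 of 12 cell cycle genes, while 11 of 12 stem cell markers rose. Of 10 T and NK cell markers 2 fell and 1 rose. The part of these shifts in the member values was not tested.

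The sterol enzymes were spread more widely between libraries in treated knockout than in the other groups, with an SD of their mean level of 0.30 there, 0.09 in untreated knockout, 0.02 in treated wild type and 0.08 in untreated wild type. Of the 19 enzymes, 15 were ordered replicate 2 over replicate 3 over replicate 1, where 39.2% of all genes tested were, and 13 were over 1.5 times as high in replicate 2 as in replicate 1, where 32.2% of all genes were. Mvd had 4.89, 9.63 and 6.73 FPKM in treated knockout replicates 1, 2 and 3, and Msmo1 had 29.5, 55.3 and 41.8. Hmgcs1 followed the same order with 7.54, 14.9 and 11.2 FPKM, and so did Cyp51 with 17.9, 32.6 and 23.5. The untreated knockout values lay inside that span for Mvd, at 5.52 to 6.52 FPKM, and for Cyp51, at 22.9 to 28.5. Replicate 2 also had the highest B cell level of the treated knockout libraries (4.92 on the log2(FPKM + 1) scale, with 2.59 and 3.50 in replicates 1 and 3). Replicate 1 had the lowest stem cell level (5.54, with 6.48 and 6.27 in replicates 2 and 3) and the highest erythroid level (6.65, with 4.89 and 5.09), and the part of these cells in the order of the enzymes was not tested.

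**Figure D4:**
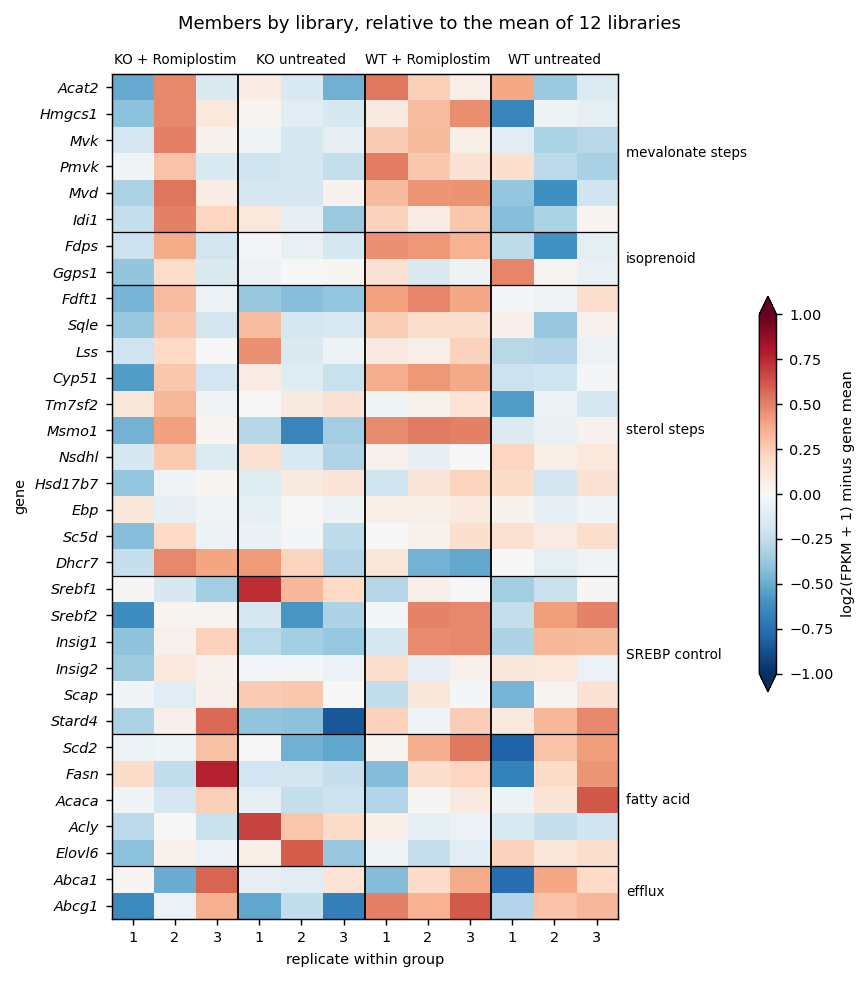
Each member's log2(FPKM + 1) minus its mean over the 12 libraries, genes down the page by role and libraries across by group and replicate, with the colour scale from -1 to 1. Many mevalonate and sterol enzymes are above their mean in treated knockout replicate 2 and in the treated wild-type libraries, with exceptions such as Ebp in that library and Dhcr7 in treated wild-type replicates 2 and 3, and the lower rows show low Scd2, Fasn and Abca1 in untreated wild-type replicate 1.

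Treated knockout and treated wild type were compared to ask whether genotype matters under the agonist. Here 0 of 32 members passed, where 1.37% of all genes passed (0.632% upward and 0.741% downward), and 5 had an unadjusted p under 0.05, where 19.8% of all genes had one. A count of 26 of 32 members lay below 0, with a median of -0.13, and -0.07 over all genes. Cyp51, Msmo1 and Fdft1 had groups that did not overlap, downward, where 15.2% of all genes did so, and 0 members upward, where 9.94% did. Fdft1 had 12.7, 22.5 and 17.2 FPKM in treated knockout, against 24, 25.5 and 23.8 in treated wild type (-0.49 ± 0.16, limma adjusted p = 0.143). Cyp51 and Msmo1 had changes of -0.55 ± 0.18 and -0.51 ± 0.19 (limma adjusted p of 0.136 and 0.170). Without treated knockout replicate 2, in which the enzymes were highest, Cyp51, Msmo1, Fdps and Fdft1 passed as lower, where 12.2% of all genes passed, 9.63% downward. In this comparison 3 of 10 B cell, 4 of 10 macrophage and 5 of 10 erythroid markers rose. So did 1 of 10 myeloid, 2 of 10 T and NK cell and 1 of 12 cell cycle genes, and the part of these shifts was not tested.

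The difference between the agonist effects in knockout and in wild type was tested as an interaction, in which 15.6% of all genes passed, 5.53% upward and 10.0% downward, and 31.8% had an unadjusted p under 0.05. Acly alone of the 32 members passed and 5 had such an unadjusted p. Acly had an interaction of -0.71 ± 0.19 (limma adjusted p = 0.0289). Fdps had -0.65 ± 0.24 (limma adjusted p = 0.0838), Stard4 0.81 ± 0.30 (0.0869) and Srebf1 -0.70 ± 0.24 (0.0659), so that for these a difference between genotypes in the agonist effect was not established at 3 libraries per group. The Acly call was lost without any 1 of the 3 treated wild-type libraries, without untreated wild-type replicate 2 or 3 or without treated knockout replicate 3 (adjusted p of 0.0570 to 0.0716), and with the Y-linked covariate (0.105, at -0.74 ± 0.24). Without treated knockout replicate 2, 4 members passed downward (Acly, Cyp51, Fdps and Mvd), where 14.0% of all genes did. All 10 macrophage, 8 of 10 B cell, 8 of 10 myeloid and 8 of 12 cell cycle genes also passed the interaction downward. So did 3 of 9 stromal and endothelial and 3 of 10 T and NK cell markers, while 9 of 12 stem cell markers passed upward. Of 10 erythroid markers 1 passed upward and 1 downward. The part of these shifts in the member values was not tested.

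**Figure D5:**
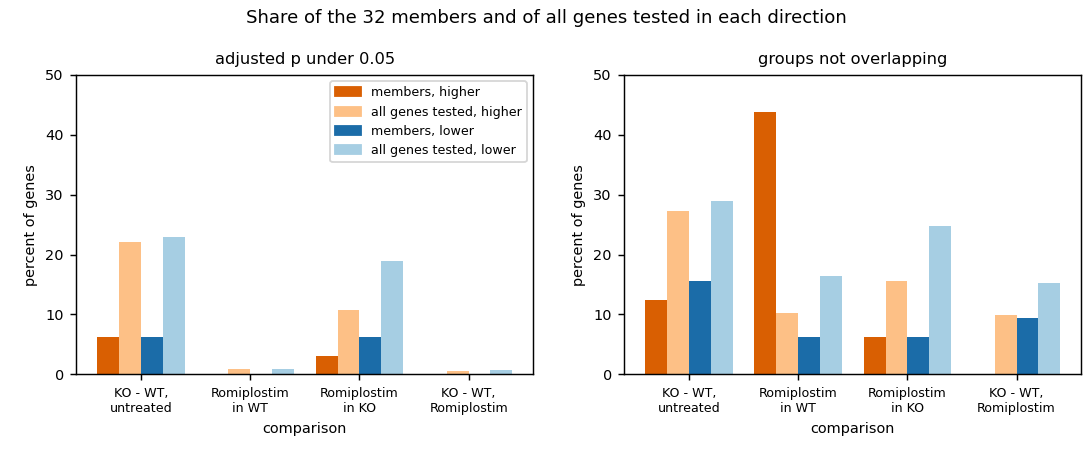
Percent of the 32 members and of all 12823 genes tested that passed an adjusted p under 0.05 (left) or had groups of 3 libraries that did not overlap (right), by comparison and direction, bars from 0. For Romiplostim in wild type 0 members passed while 14 of 32 did not overlap upward, beside 10.3% of all genes.

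Within the wild-type groups a second pattern crossed the treatment. Of the 13 regulators, fatty acid genes and pumps, 8 were lowest in replicate 1 of both groups, where 29.0% of all genes were, and of the 19 enzymes 4 were. In untreated wild type 6 of these 13 were at least 1.5-fold under both other libraries in replicate 1, where 10.9% of all genes were. Scd2, a desaturase, had 22.6, 28.8 and 32.4 FPKM in treated wild type, against 12.2, 27.2 and 30.0 in untreated wild type. Fasn had 5.53, 8.93 and 9.23 FPKM in treated, against 4.53, 9.02 and 11 in untreated wild type. Insig1, itself an SREBP target, had 6.84, 11.2 and 11.3 FPKM in treated, against 6.11, 10.1 and 9.99 in untreated wild type, and Abca1 had 1.78, 3.26 and 3.86 against 1.22, 3.91 and 3.32. Replicate 1 was low in each of these 4 genes whatever the treatment. The 2 replicate 1 libraries differed in their Y-linked level (0.03 in treated and 3.85 in untreated wild type).

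Other genes of lipid handling were taken as 6 lists with 73 tested genes. In untreated knockout against untreated wild type 27 of the 73 passed (37.0%), where 45.1% of all genes did, and in treated against untreated knockout 25 passed (34.2%), where 29.6% of all genes did. By direction, 22.1% of all genes rose and 23.0% fell in the first of these comparisons, and 10.7% rose and 18.9% fell in the second. In treated against untreated wild type 0 of the 73 passed, where 1.84% of all genes did. Of 9 genes that process SREBP, 3 rose and 1 fell in untreated knockout. Sec23a, a coat protein of the vesicles that leave the endoplasmic reticulum, averaged 19.6 ± 3.05 FPKM in untreated knockout and 11.9 ± 1.44 in untreated wild type (log2 fold change 0.67 ± 0.16, limma adjusted p = 0.00477). Mbtps2, the Golgi protease that releases SREBP from the membrane, fell by 0.62 ± 0.20. With the agonist in knockout 1 of the 9 rose and 4 fell. Of 9 tested genes of the LXR network, the sterol-sensing arm that drives efflux, 2 rose and 0 fell in untreated knockout. Nr1h3, which encodes LXR alpha, averaged 14.0 ± 3.36 FPKM in untreated knockout and 4.74 ± 0.775 in untreated wild type (1.37 ± 0.23, limma adjusted p = 0.000577), and 2.5 ± 1.04 in treated knockout, where it fell by 2.12 ± 0.23 with the agonist, 1 of 4 of the 9 genes that fell. Its targets Abca1 and Abcg1 did not pass in either comparison. Another ABC transporter gene of this list did pass in both, upward in untreated knockout and downward with the agonist there. Nr1h3 is abundant in macrophages, whose markers moved in the same direction, and the part of those cells was not tested.

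Of 13 glycerolipid genes, 6 rose and 2 fell in untreated knockout, where 22.1% of all genes rose and 23.0% fell. With the agonist in knockout 0 rose and 4 fell, where 10.7% of all genes rose and 18.9% fell. The same shares apply to the counts of the other lists below. Dgat2, an enzyme of the last step of triglyceride synthesis, averaged 6.76 ± 3.54 FPKM in untreated knockout and 0.736 ± 0.311 in untreated wild type (2.08 ± 0.27, limma adjusted p = 0.000136), and 0.918 ± 0.0923 in treated knockout. Gpam, the acyltransferase of the first step, rose by 1.22 ± 0.19 in untreated knockout and fell by 0.95 ± 0.19 with the agonist in knockout. Of 14 genes of sterol storage and transport, 4 rose and 0 fell in untreated knockout, and 0 rose and 8 fell with the agonist in knockout. Scarb1, a receptor for high-density lipoprotein, averaged 108 ± 19 FPKM in untreated knockout and 54.9 ± 8.56 in untreated wild type (0.96 ± 0.16, limma adjusted p = 0.000515). Lipa, the lysosomal lipase that frees cholesterol from its esters, rose by 1.07 ± 0.20. Of 15 other fatty acid genes 4 rose and 3 fell in untreated knockout, with malic enzyme Me1 at -0.93 ± 0.17 and the elongase Elovl5 at 0.59 ± 0.14, and 2 rose and 1 fell with the agonist in knockout. Of 14 genes that use isoprenoids, such as prenyltransferases, 1 rose (Icmt) and 1 fell (Coq2) in untreated knockout, and Icmt fell with the agonist in knockout.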

How the data were processed

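RNA of sorted hematopoietic stem cells was amplified with a SMARTer Ultra Low kit, which does not mark the strand, and sequenced in pairs, per the labels' protocols. The authors deposited 1 FPKM value per gene and library. Per the submitters' processing notes, TopHat2, Cufflinks 2.2.1 and the build mm10 were used, and filters and annotation release are not given in the sources used here, nor is the treatment of reads shared by near-identical copies. Of 35275 identifiers 34490 matched GENCODE M21, whose merged exon length gave the depth estimate (40.2% to 52.9% of values of up to 50 fragments were whole within 0.05). Candidate depths were limited to 15 to 40 M, since multiples of a fitting depth fit too. Counting floors cover counting error only.

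Values were converted to log2(FPKM + 1), which understates changes of low genes. Group means were fitted with limma 3.58.1 (R 4.3.3) to all 12 libraries with an intensity trend, for genes that reached 1 FPKM in 3 or more libraries. Tests were two-sided with Benjamini-Hochberg adjustment over 12823 genes per contrast. The procedure was run on simulated data with changes larger than those of the members, so that run does not cover changes of their size. An exact test of 3 against 3 cannot go below 0.1.

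Members and lists were chosen with earlier results of these data known. All members were named, by role, those past the criterion with their values, and of each other list at most the 3 genes of smallest p, of which 1 is not reported here. Alternatives changed the pseudocount (0.1), filter (5 FPKM or none), scaling, libraries, block and a Y-linked covariate. A fit of the wild-type libraries alone with the number as a block and a fit without replicate 1 of both were chosen after seeing the data.

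Replicate numbers come from the sample titles. Deviations from the group means of same-numbered libraries correlated at 0.403, 0.123 and 0.383 between the wild-type groups, and those of differently numbered ones at -0.36 to 0.123. The main fit did not pair libraries, and a block by replicate number was used only in alternative fits.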

Additional observations from a re-analysis of the deposited data

Results flagged for a closer look

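The agonist effect on Acly differed between genotypes by a log2 value of -0.71 (limma interaction, adjusted p = 0.0289, range 0.00924 to 0.105 over 21 alternatives). Of all genes, 15.6% passed this interaction. In knockout Acly was lower in 3 of 3 treated than in all untreated libraries, as were 24.7% of all genes. In wild type it was higher in 3 of 3, as were 10.3% of all genes, but its change of 0.17 ± 0.13 did not pass (limma adjusted p = 0.685). It was not tested further.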

How the results depend on the processing

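Acly and Srebf1 rising and Stard4 falling in untreated knockout against untreated wild type held in all 15 alternatives. No named change turned direction under any alternative run for it, but Fdft1 in that comparison kept its call in 6 of 15. Of the calls in treated against untreated knockout, Acly kept 13, Srebf1 10 and Stard4 6 of 15, and the Acly interaction kept 13 of 21. The cause of the changes below was not tested.

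Shares in parentheses are of all genes tested that passed in the same direction. Members that fell in untreated knockout numbered 1 with no filter (12.2%), 9 with quantile normalization (28.9%), 1 with the Y-linked covariate (21.0%), and 1 to 6 when 1 library was left out (18.4% to 22.9%, with 6 without untreated wild-type replicate 1). Members higher in treated than in untreated wild type numbered 2 with median-of-ratios scaling (1.32%), 2 with quantile normalization (1.33%), 1 with a pseudocount of 0.1 (1.05%), 4 with only the groups compared in the fit (2.17%), 5 with the replicate block in the wild-type groups alone (3.06%) and 3 when both treated knockout replicate 2 and untreated knockout replicate 3 were left out (1.62%). Members that rose in treated against untreated knockout numbered 3 with median-of-ratios scaling (14.4%) and 5 with quantile normalization (19.2%). They numbered 0 with no filter (4.26%), with only the groups compared (5.80%), with the covariate (2.46%) or without those 2 libraries (9.01%), and 0 to 4 when 1 library was left out (6.15% to 13%). Members that fell there numbered 0 with only the groups compared (9.96%) or the covariate (5.79%), 1 with quantile normalization (13.8%), and 1 to 2 when 1 was left out (12.3% to 23.5%). In treated knockout against treated wild type 4 fell without the same 2 libraries (10.5%), and 0 to 4 when 1 was left out (0.109% to 9.63%). In the interaction 1 member was higher with median-of-ratios scaling (6.93%) or quantile normalization (11.2%), and 0 to 1 when 1 library was left out (2.88% to 9.07%). Lower there were 0 with the covariate (2.60%), 5 without the 2 libraries (15.5%) and 0 without replicate 1 of both wild-type groups (4.16%), and 0 to 4 when 1 was left out (5.58% to 14.0%). The interaction share of called genes that were higher was 35.5% as deposited, 40.6% with median-of-ratios scaling and 55.5% with quantile normalization.

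Members whose groups did not overlap are given with the share of all genes tested. In untreated knockout against wild type 10 were lower with quantile normalization (34.0%), and leaving out 1 library gave 4 to 7 higher (28.3% to 32.9%) and 5 to 11 lower (31.1% to 37.9%). In treated against untreated wild type 1 was lower with median-of-ratios scaling (14.0%) and 0 with quantile normalization (14.9%), and leaving out 1 gave 14 to 16 higher (12.1% to 16.9%) and 2 to 4 lower (18.9% to 29.1%). In treated against untreated knockout 7 were higher with median-of-ratios scaling (20.4%) and 9 with quantile normalization (25.5%), 1 was lower with quantile normalization (17.0%), and leaving out 1 gave 2 to 12 higher (17.9% to 24.9%) and 2 to 5 lower (26.5% to 37.1%). In treated knockout against treated wild type 5 were lower with quantile normalization (16.9%), and leaving out 1 gave 0 to 1 higher (11.1% to 15.4%) and 4 to 14 lower (17.2% to 36.8%). The 14 came without treated knockout replicate 2.

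Outside the wild-type groups the deviations of same-numbered libraries correlated at 0.188, 0.064 and 0.190 in knockout. They correlated at 0.074, -0.191 and -0.072 between untreated groups and at -0.015, -0.125 and -0.059 between treated groups. With the replicate block in the fit of all 12 libraries 2 members rose and 3 fell (Abcg1, Srebf2 and Stard4) in untreated knockout (45.1% of all genes passed), 0 passed in treated against untreated wild type (1.55%), 1 rose and 2 fell in treated against untreated knockout (29.5%), 0 passed between treated groups (1.36%), and Acly passed the interaction (15%). With 3 libraries per group, small differences of low members such as Acaca and Abca1 were not resolved.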
